A study of Mus musculus with 6 samples.

Results

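The 34 genes described here encode enzymes of cholesterol synthesis, a cholesterol carrier (Stard4), enzymes of fatty acid synthesis and the proteins that control both pathways. They were taken by name, with earlier results of these data known. Among the probe sets annotated to a gene's symbol and to no other, the one with the highest mean over the 6 arrays stood for the gene. This gave 33 measured genes of 18193 on the arrays, of which 17 belonged to the sterol branch, 11 to the fatty acid branch and 5 to the regulators. Acat2, the cytosolic acetoacetyl-CoA thiolase, is not annotated as the single gene of any probe set and was not analysed here.

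Cells build cholesterol from acetyl-CoA by way of mevalonate, isoprenoid diphosphates, squalene and lanosterol, and they build fatty acids from the same acetyl-CoA by way of malonyl-CoA and palmitate. Transcription of both pathways is driven by the sterol regulatory element binding proteins (SREBPs), encoded by Srebf1 and Srebf2. The escort protein SCAP carries SREBPs out of the endoplasmic reticulum for cleavage when sterol is scarce, and INSIG proteins hold them back when it is plentiful. In skin, the products of these pathways are used for membranes, for the epidermal barrier and for sebum.

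The cells came from the bulge, the part of the hair follicle that holds its stem cells, of vibrissae (whisker follicles) of mice at 7 to 8 weeks of age. They were embedded in atelocollagen at 1% and grown in the gel for 6 days. NFFSE medium contained Noggin, FGF7, FGF10, the hedgehog agonist SAG and EGF, and NFFS medium contained the same agents without EGF. EGF was the agent that differed between the media. The question was how the transcript levels of lipid synthesis genes in cells with EGF compared with those in cells without it. The experiment was performed 3 times, and each repeat gave 1 NFFSE and 1 NFFS array, which the labels call biological replicates. All cells of the dissected bulge were placed in culture without sorting, and the sources used here do not say how many mice a repeat pooled. In such bulk samples, fewer cells of a type and less RNA per cell cannot be told apart.

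Signals are the deposited linear array intensities, which had the same trimmed mean of 500.003 on every array, while the array medians were 56.5 to 65.0 in NFFSE and 66.5 to 70.6 in NFFS. All 9 listed markers of follicle epithelium were measured, and the dimmest of them stood at the 83.5 percentile of all genes. Their summed signal was 124631 to 143803 in NFFSE arrays and 109199 to 122575 in NFFS arrays. Of the 9, 4 rose and 2 fell, with Cd34 3.93-fold higher in NFFSE, while Krt15 averaged 6961 in NFFSE and 26565 in NFFS, and Sox9 was 2.27-fold lower in NFFSE. The 8 fibroblast markers summed to 487 to 502 in NFFSE and 691 to 906 in NFFS, with 3 that fell (Col1a2, Vim and Thy1), and 0 of 14 leukocyte, melanocyte and endothelial markers passed the test (limma, 1 at an unadjusted p under 0.05). Differences are given as log2 of NFFSE over NFFS with their standard error (SE), and a gene is said to have risen or fallen when its p-value from limma, adjusted by Benjamini-Hochberg over all 18193 genes, was under 0.05. The median log2 difference of all genes was -0.012, and it shifted to 0.19 when arrays were centered on their medians.

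Most genes of the sterol branch, in which the carrier gene Stard4 is counted, were higher in NFFSE-cultured cells. Of the 17 sterol genes, 11 rose, 0 fell and 6 did not pass the test, against 11.1% of all genes that rose and 15.4% that fell. Since the genes were chosen with earlier results of these data known, counts set beside such shares are descriptions. Of the 11 fatty acid genes, 2 rose and 3 fell, and of the 5 regulators, 1 rose and 1 fell. Every member's probe set had a mean signal above that of the median gene, so the same shares were also taken over the 7856 genes at or above the mean of the lowest member, Acss2 (295.5). Of these, 19.5% rose and 24.1% fell, so that the shares of fatty acid genes and regulators that rose or fell were near those of other genes of such signal. The median log2 difference was 0.50 for the sterol branch, 0.12 for the fatty acid branch and 0.17 for the regulators, against -0.024 for the genes at or above that signal. With median-centered arrays these became 0.70, 0.32 and 0.37, against 0.18 for those genes. With quantile normalization they were 0.48, -0.073 and 0.21, against -0.011, so that the sign of the fatty acid median depended on the scaling.

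**Figure D1:**
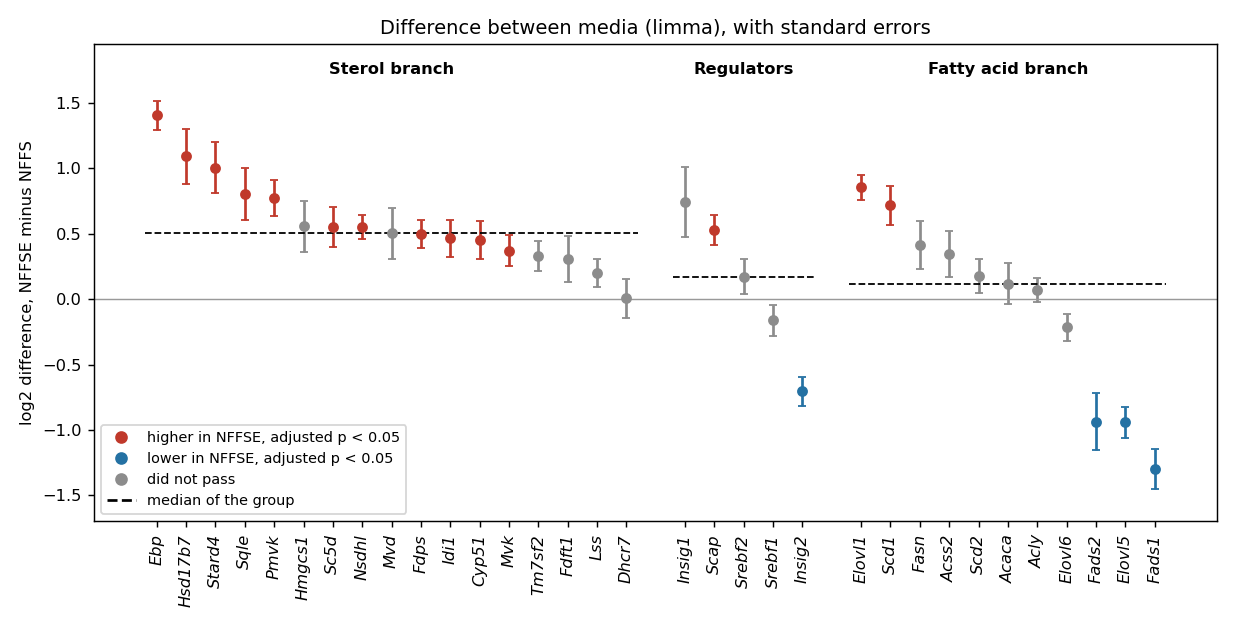
Log2 differences of the 33 measured genes, NFFSE minus NFFS, with bars of 1 SE, grouped into sterol, fatty acid and regulator genes. Red points rose, blue points fell and grey points did not pass the test, and a dashed line marks each group's median. The sterol points lie at or above 0, between 0.01 and 1.41, while the fatty acid points run from -1.30 to 0.85.

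In the first steps of sterol synthesis, the mevalonate kinases rose and the entry enzyme was higher without passing the test. Hmgcs1, which condenses acetyl-CoA and acetoacetyl-CoA to HMG-CoA, had signals of 10440.4, 11935 and 13725 in NFFSE arrays, against 6608, 7086 and 11504 in NFFS arrays. NFFS replicate 3 was above NFFSE replicate 1, so the groups overlapped. The log2 difference was 0.56 ± 0.20 (SE), or 1.47-fold, with an adjusted p of 0.065. With the repeat as a block the adjusted p was 0.0066, and without NFFS replicate 3 the difference was 0.81 with an adjusted p of 0.0039.

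Pmvk, the phosphomevalonate kinase, rose the most among the enzymes of the mevalonate part. Its signal was 1469 ± 128 in NFFSE and 865 ± 129.9 in NFFS (SD, n = 3 each), a difference of 0.77 ± 0.14 with a limma adjusted p of 0.0019. Mvk, the mevalonate kinase upstream of it, averaged 716 ± 28.3 in NFFSE and 554 ± 22.4 in NFFS, a 1.29-fold rise with an adjusted p of 0.043. That call was lost when any 1 of the 6 arrays was left out, with adjusted p-values of 0.070 to 0.13. Mvd, the decarboxylase that makes isopentenyl diphosphate, had 963, 969 and 989 in NFFSE, against 527, 644 and 957 in NFFS. The groups did not overlap, but NFFS replicate 3 lay close to the NFFSE arrays, and the difference of 0.50 ± 0.19 had an adjusted p of 0.085. It was 0.039 with the repeat as a block, and 0.0058 without NFFS replicate 3, while without NFFS replicate 1 the difference was 0.31 with an adjusted p of 0.26.

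Enzymes of the isoprenoid steps rose less than Pmvk. Idi1, the isomerase of isopentenyl diphosphate, averaged 12826 ± 1389.8 in NFFSE and 9347 ± 1497 in NFFS (1.38-fold, adjusted p of 0.034). Fdps, which makes farnesyl diphosphate, averaged 15778 ± 290.3 in NFFSE and 11197 ± 1191 in NFFS (1.41-fold, adjusted p of 0.0065). Neither passed the test under quantile normalization, where the adjusted p was 0.14 for Idi1 and 0.13 for Fdps. Fdft1, the squalene synthase at the branch point to sterols, averaged 5562 ± 521 in NFFSE and 4596 ± 1282 in NFFS, and its difference of 0.31 ± 0.18 had an adjusted p of 0.25. It rested on single arrays, since it was 0.52 without NFFS replicate 3 (adjusted p of 0.028) and 0.13 without NFFS replicate 1 (adjusted p of 0.64).

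Sqle, the squalene epoxidase and a rate-limiting enzyme of the sterol part, rose. Its signals were 6882, 9789 and 9589 in NFFSE arrays, against 3924, 4652 and 6677 in NFFS arrays. The lowest NFFSE array was above the highest NFFS array by a small margin. The difference was 0.80 ± 0.20, or 1.74-fold, with an adjusted p of 0.013, and it did not pass the test without NFFSE replicate 2 (0.064) or NFFSE replicate 3 (0.055). Lss, which closes the ring to form lanosterol, averaged 1601 ± 84.8 in NFFSE and 1394 ± 95.5 in NFFS, with a difference of 0.20 ± 0.11 and an adjusted p of 0.21.

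The enzymes that turn lanosterol into cholesterol held the largest differences of the branch. Ebp, the sterol isomerase that shifts a double bond in the ring, had signals of 4282, 3932 and 3807 in NFFSE arrays, against 1651, 1547 and 1347 in NFFS arrays. The gap between the media was wider than the range within either. The difference was 1.41 ± 0.11, or 2.65-fold, with an adjusted p of 1.5e-05.

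Hsd17b7, a ketosteroid reductase of the demethylation complex, had signals of 1155, 1378 and 1388 in NFFSE arrays, against 464, 561 and 878 in NFFS arrays. The groups were separate, with NFFS replicate 3 the nearest to the NFFSE arrays. The difference was 1.09 ± 0.21, or 2.13-fold, with an adjusted p of 0.0034. Nsdhl, the dehydrogenase of the same complex, averaged 3741 ± 55.8 in NFFSE and 2558 ± 94.9 in NFFS, a 1.46-fold rise with an adjusted p of 0.0014.

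Cyp51, the lanosterol demethylase, and Sc5d, the desaturase of the last steps, rose less firmly. Cyp51 averaged 7050.3 ± 633 in NFFSE and 5209 ± 999.8 in NFFS, with an adjusted p of 0.045 that exceeded 0.05 in 5 of the 6 fits with 1 array left out. The sole exception was the fit without NFFS replicate 3, and the others gave 0.054 to 0.15. Without NFFS replicate 1 the difference was 0.29, against 0.45 with all arrays. Sc5d averaged 3032 ± 402 in NFFSE and 2078 ± 377 in NFFS (1.47-fold, adjusted p of 0.021). It did not pass without NFFSE replicate 2 (0.094), NFFSE replicate 3 (0.078) or NFFS replicate 1 (0.071), and its difference was -0.0054 when all its probe sets were averaged. Idi1 likewise did not pass without NFFSE replicate 2 (0.13), NFFSE replicate 3 (0.12) or NFFS replicate 1 (0.093).

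Tm7sf2, a sterol reductase, averaged 865 ± 60.0 in NFFSE and 687 ± 30.6 in NFFS, with a difference of 0.33 ± 0.12 and an adjusted p of 0.064. Its groups did not overlap. Dhcr7, the reductase that makes cholesterol in the final step, had 887, 672 and 635 in NFFSE arrays, against 749, 674 and 739.6 in NFFS arrays. It was the member whose media were closest, with a difference of 0.01 ± 0.15 and an adjusted p of 0.98, and the sign turned to -0.14 without NFFSE replicate 1 and to -0.041 without NFFS replicate 2.

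Stard4, which carries cholesterol between membranes inside the cell, was the only transport protein of the list and rose 2.01-fold. Its signals were 1438, 1808 and 1724 in NFFSE arrays, against 670.0, 719.6 and 1148 in NFFS arrays. The groups were separate, again with NFFS replicate 3 the highest of its medium. The difference was 1.01 ± 0.19 with an adjusted p of 0.0035. Across the sterol branch, all NFFSE arrays were above all NFFS arrays for 13 of 17 genes, against 18.5% of all genes.

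**Figure D2:**
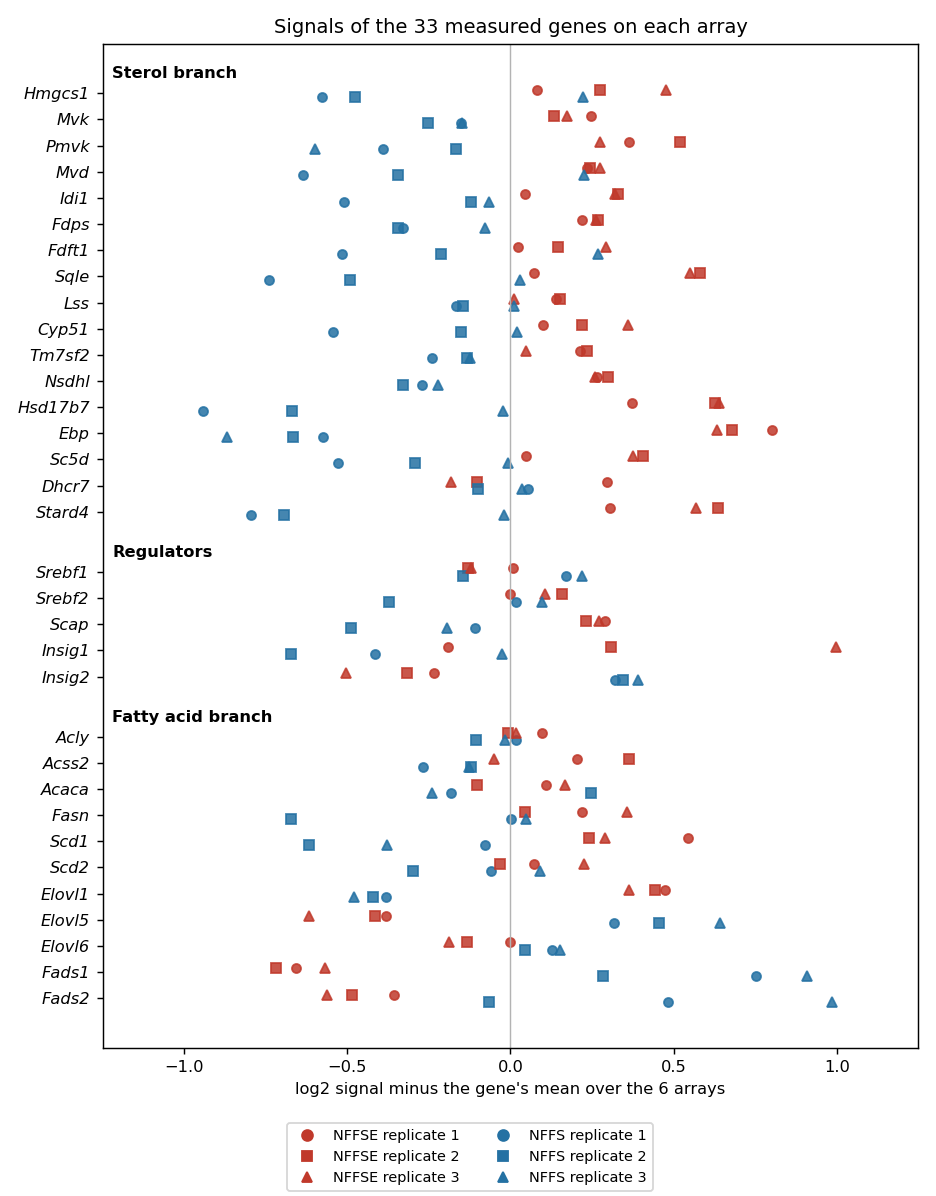
Log2 signal of each of the 33 genes on the 6 arrays, minus the gene's mean over these arrays. Red is NFFSE and blue is NFFS, with circles, squares and triangles for replicates 1, 2 and 3. For Ebp the red points stand for signals of 3807 to 4282 and the blue points for 1347 to 1651. For Hmgcs1 the blue triangle, a signal of 11504, lies among the red points.

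To show the sequence that these genes have at their starts, promoters were taken from a table of RefSeq sequences (GRCm38.p6) with windows of 300 bases, from 250 before to 50 after the start. It was used for 26 of the 33 genes, and the promoters of Fdps, Fdft1, Sqle, Stard4, Scd1, Scd2 and Fads1 were not analysed here. Motifs known to be bound by SREBPs, by NF-Y and by E-box factors were searched on both strands, with a gene counted when any of its windows held the letters. A match is a description, not a binding site. The core of the sterol regulatory element, TCACNCCAC, was found in 1 of 26 genes, Hmgcs1, against 1.44% of all 27025 genes in the table. CCAAT, the box bound by NF-Y, was found in 22 of 26 genes (84.6%), against 41.1% of all genes. It was present in 13 of 13 sterol genes, 5 of 8 fatty acid genes and 4 of 5 regulators. CACGTG, an E-box, was found in 6 of 26 genes (23.1%), namely Hsd17b7, Dhcr7, Sc5d, Elovl5, Insig1 and Scap, against 8.09% of all genes. Among the 14452 genes of the table that were measured on the arrays, these shares were 1.46%, 42.0% and 10.2%, in the same order. No motif contains another. The 250 bases before the start are printed 5′ to 3′ on the strand of the gene for 3 sterol genes that were higher and 2 fatty acid genes that were lower in NFFSE, with motif matches in capitals (ATTGG is CCAAT on the other strand). Hmgcs1 (chr13:119690101-119690350, plus strand) has the sterol element, whose first base lies 137 bases before the start, and 3 CCAAT boxes. Ebp (chrX:8193513-8193762, minus strand) has CCAAT boxes at 170 and 55 bases. Hsd17b7 (chr1:169969206-169969455, minus strand) has 3 CCAAT boxes and an E-box. Elovl5 (chr9:77917115-77917364, plus strand) has 2 CCAAT boxes and an E-box, and Fads2 (chr19:10101504-10101753, minus strand) has none of these letters in its window.
Hmgcs1: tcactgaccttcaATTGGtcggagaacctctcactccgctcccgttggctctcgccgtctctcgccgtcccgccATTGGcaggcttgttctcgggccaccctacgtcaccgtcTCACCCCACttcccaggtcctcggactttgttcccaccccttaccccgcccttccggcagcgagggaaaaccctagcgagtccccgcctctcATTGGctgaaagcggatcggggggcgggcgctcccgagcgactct
Ebp: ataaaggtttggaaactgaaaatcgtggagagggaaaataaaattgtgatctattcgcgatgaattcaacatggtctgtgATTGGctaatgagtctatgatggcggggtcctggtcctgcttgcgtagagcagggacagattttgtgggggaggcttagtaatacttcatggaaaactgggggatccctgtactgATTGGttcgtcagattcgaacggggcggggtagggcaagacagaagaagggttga
Hsd17b7: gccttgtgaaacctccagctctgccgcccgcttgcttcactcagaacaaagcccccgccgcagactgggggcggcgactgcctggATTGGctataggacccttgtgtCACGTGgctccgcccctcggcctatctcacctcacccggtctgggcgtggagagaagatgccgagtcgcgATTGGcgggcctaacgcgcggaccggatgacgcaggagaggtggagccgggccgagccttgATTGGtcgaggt
Elovl5: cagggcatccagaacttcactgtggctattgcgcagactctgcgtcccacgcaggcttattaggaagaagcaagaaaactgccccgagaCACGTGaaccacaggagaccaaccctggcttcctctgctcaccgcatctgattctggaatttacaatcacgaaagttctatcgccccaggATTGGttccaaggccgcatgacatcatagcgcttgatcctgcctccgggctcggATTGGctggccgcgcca
Fads2: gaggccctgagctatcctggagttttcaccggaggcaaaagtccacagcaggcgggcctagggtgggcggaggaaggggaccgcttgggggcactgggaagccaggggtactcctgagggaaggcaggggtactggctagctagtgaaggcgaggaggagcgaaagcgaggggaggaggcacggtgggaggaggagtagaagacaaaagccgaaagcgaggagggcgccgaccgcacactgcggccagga
A CCAAT box was present both in genes that rose and in Elovl5, which fell.

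Among the regulators, the SREBP escort rose and one of the INSIG genes fell, while the SREBP transcripts themselves differed little. Scap had signals of 2737, 2633 and 2707 in NFFSE arrays, against 2078, 1596 and 1959.8 in NFFS arrays. The groups did not overlap. The difference was 0.53 ± 0.12, or 1.44-fold, with an adjusted p of 0.0074, and it fell short of the threshold when all its probe sets were averaged (0.36).

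Insig2 had signals of 1094, 1034 and 907 in NFFSE arrays, against 1606, 1636 and 1686 in NFFS arrays. It was lower in every repeat, with a difference of -0.70 ± 0.11 (1.63-fold lower) and an adjusted p of 0.001. Insig1, itself a well-known SREBP target, had 726, 1026 and 1653 in NFFSE, against 621, 520.1 and 815 in NFFS. The NFFSE arrays were widely spread, and NFFSE replicate 1 lay within the NFFS range. The difference was 0.74 ± 0.27 with an adjusted p of 0.072, which was 0.0073 with the repeat as a block and 0.016 without NFFSE replicate 1. Without NFFSE replicate 3, the highest array, the difference was 0.43 with an adjusted p of 0.23. Insig1 and Insig2 thus had differences of opposite sign, of which that of Insig2 passed the test.

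Srebf1, which encodes the SREBPs linked mainly to fatty acid genes, had 2635, 2394 and 2412 in NFFSE arrays, against 2946, 2369.5 and 3048 in NFFS arrays. Srebf2, whose product acts mainly on sterol genes, had 1301, 1452 and 1402 in NFFSE arrays, against 1319.7, 1006 and 1393 in NFFS arrays. Both overlapped between the media. The differences were -0.16 ± 0.12 for Srebf1 (adjusted p of 0.38) and 0.17 ± 0.14 for Srebf2 (adjusted p of 0.42), and that of Srebf1 became 0.039 with median-centered arrays. SREBP cleavage, the step that SCAP and INSIG control, is not read by transcript arrays.

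In the fatty acid branch, the enzymes that supply and assemble palmitate did not pass the test. Acly and Acss2, which make cytosolic acetyl-CoA from citrate and from acetate, had differences of 0.07 ± 0.09 and 0.34 ± 0.17. Acaca, which commits acetyl-CoA to malonyl-CoA, had signals of 767, 662 and 797 in NFFSE arrays, against 626, 843 and 602 in NFFS arrays. These overlapped fully, with a difference of 0.12 ± 0.16 and an adjusted p of 0.66.

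Fasn, the fatty acid synthase, had 2389, 2119 and 2630.3 in NFFSE arrays, against 2053, 1289 and 2124 in NFFS arrays. NFFSE replicate 2 lay just below NFFS replicate 3. The difference of 0.41 ± 0.18 had an adjusted p of 0.13, which was 0.026 with the repeat as a block and 0.037 with median-centered arrays. Without NFFS replicate 2, the lowest array, the difference was 0.18 with an adjusted p of 0.30.

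The genes that rose in this branch act on saturated and monounsaturated chains, a grouping by substrate made after the values were seen. Scd1, the stearoyl-CoA desaturase that makes oleate, had signals of 4397, 3558 and 3685 in NFFSE arrays, against 2858, 1964 and 2317 in NFFS arrays. The groups did not overlap, and the difference was 0.72 ± 0.15, or 1.64-fold, with an adjusted p of 0.0048. Its close relative Scd2 had 17402 ± 1562 in NFFSE and 15441 ± 2069 in NFFS and did not pass the test (0.18 ± 0.13, adjusted p of 0.37). Elovl1, which extends saturated and monounsaturated chains to very long lengths, had 3567, 3496 and 3309 in NFFSE arrays, against 1975, 1921 and 1844 in NFFS arrays. The media were far apart beside the spread within each, with a difference of 0.85 ± 0.09, or 1.81-fold, and an adjusted p of 0.00011.

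The genes that fell in this branch act on polyunsaturated chains, by the same grouping made after the values were seen. The shares of this branch that rose and fell were near those of other genes of like signal. Outside the list, Fads3, a relative of Fads1 and Fads2, was 4.33-fold higher in NFFSE. The elongase gene Elovl3, also outside the list and not an enzyme of polyunsaturated chains, was 2.91-fold lower. Neither Fads3 nor Elovl3 thus followed the grouping. Fads1, a front-end desaturase that makes arachidonate, had signals of 1097, 1052 and 1166 in NFFSE arrays, against 2915, 2109 and 3252 in NFFS arrays. The NFFSE arrays were all close together and below every NFFS array. The difference was -1.30 ± 0.15 (2.46-fold lower), with an adjusted p of 0.00017.

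Fads2, the desaturase that takes the first step from linoleate, had 1556, 1425 and 1349.7 in NFFSE arrays, against 2788, 1905 and 3949 in NFFS arrays. NFFS arrays were more spread than NFFSE arrays but did not overlap with them. The difference was -0.94 ± 0.22 (1.91-fold lower) with an adjusted p of 0.0093, and the adjusted p was 0.083 when signals were floored at background and 0.082 without an intensity trend. Elovl5, the elongase between these desaturation steps, had 3627, 3545 and 3084 in NFFSE arrays, against 5884, 6480.0 and 7383 in NFFS arrays. It was lower in all 3 repeats, with a difference of -0.94 ± 0.12 (1.92-fold lower) and an adjusted p of 0.00022. Elovl6, which extends palmitate to stearate, averaged 1755 ± 118 in NFFSE and 2037 ± 78.0 in NFFS. Its NFFSE arrays were below its NFFS arrays, but the difference of -0.22 ± 0.10 had an adjusted p of 0.16. Palmitate is a saturated chain, so the direction of Elovl6 was not that of the grouping.

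**Figure D3:**
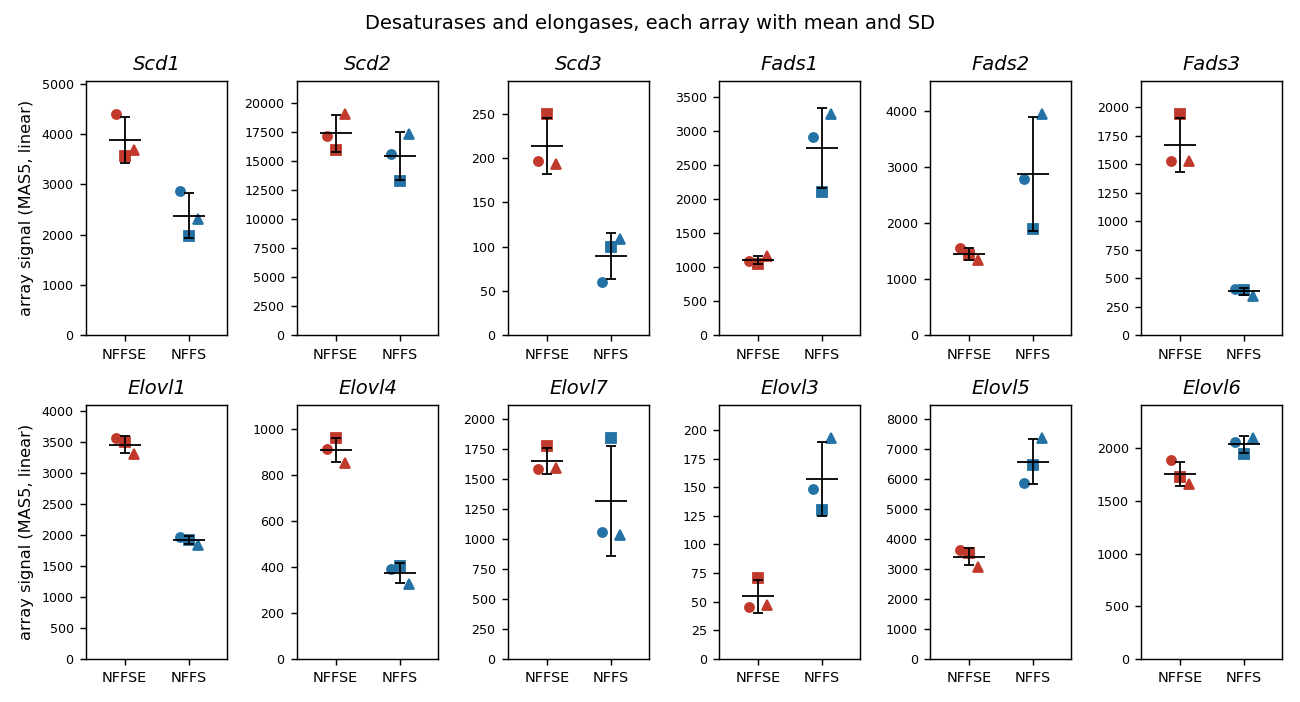
Signals of the desaturase and elongase genes on the 6 arrays on linear axes, with the mean and SD of each medium. Red is NFFSE and blue is NFFS, with circles, squares and triangles for replicates 1, 2 and 3. Red points lie above blue points for Scd1, Scd3, Fads3, Elovl1 and Elovl4. They lie below blue points for Fads1, Fads2, Elovl3, Elovl5 and Elovl6, at 1052 to 1166 against 2109 to 3252 for Fads1. The points of Scd2 and Elovl7 overlap.

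The 3 repeats agreed in the direction of the sterol genes and differed in size. Within a repeat, the NFFSE array was above its NFFS array for 17, 16 and 15 of the 17 sterol genes in repeats 1, 2 and 3. The median differences over these genes were 0.57, 0.61 and 0.34, while those over all genes were -0.028, -0.048 and 0.016. The smaller value in repeat 3 stood beside higher NFFS signals, since NFFS replicate 3 was the highest of the NFFS arrays for 14 of 17 sterol genes. Relative to each gene's mean over all arrays, the median sterol level was 0.22, 0.27 and 0.29 in NFFSE arrays, against -0.52, -0.29 and -0.020 in NFFS arrays (log2). NFFS replicate 3 reached the lowest NFFSE signal for 4 of 17 sterol genes, and NFFS replicates 1 and 2 for 1 gene each.

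Not every gene shared this pattern. Ebp differed by 1.38 and 1.35 in repeats 1 and 2 and by more in repeat 3, while in the same order Mvd differed by 0.87, 0.59 and 0.048 and Hmgcs1 by 0.66, 0.75 and 0.25. In the fatty acid branch, Fads2 differed by -0.84, -0.42 and -1.55, so that its difference was largest in size in repeat 3. Without NFFS replicate 3, 13 sterol genes rose in place of 11. The count was 6 without NFFSE replicate 2 or NFFSE replicate 3 and 7 without NFFS replicate 1, and no sterol gene fell in any of these fits. The labels give no batch for the repeats.

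**Figure D4:**
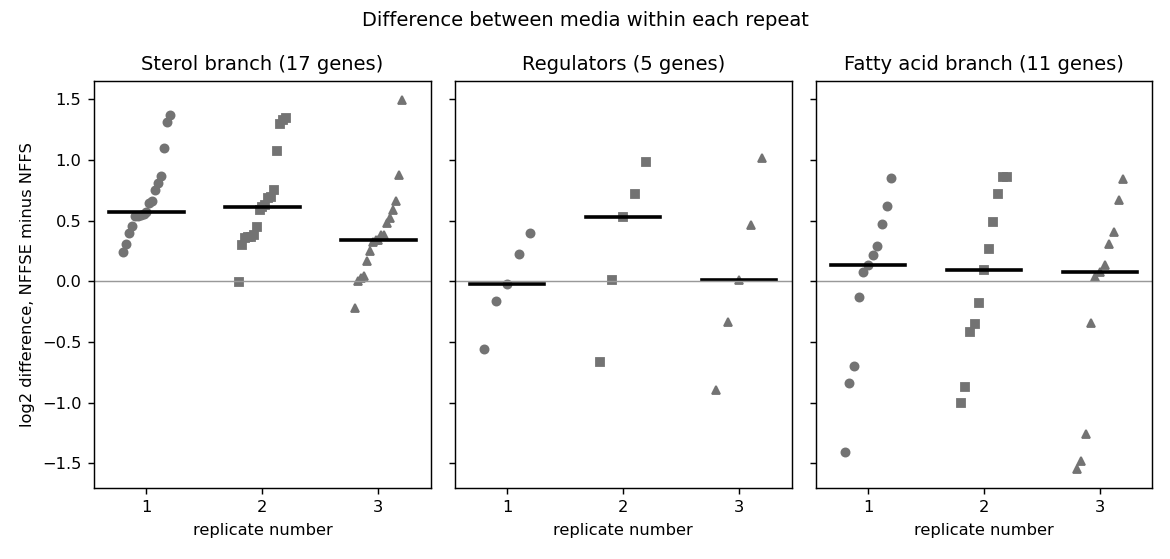
Log2 differences, NFFSE minus NFFS, within each of the 3 repeats for the sterol, fatty acid and regulator genes. Grey points are genes and black bars their medians, which for the sterol genes are 0.57, 0.61 and 0.34.

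Further genes of these pathways were counted from a list of 52, of which 43 were measured. Of these, 15 rose, 6 fell and 22 did not pass the test, with a median difference of 0.29, against 11.1% and 15.4% of all genes. The number that fell was near that share. At or above the mean signal of Acss2, 19.5% of genes rose and 24.1% fell. With the methods' t-test, 8 of the 43 rose and 3 fell after adjustment. The other 9 were not analysed here. Of 14 other genes of sterol synthesis, transport and control, 0 rose and 3 fell by limma. At an unadjusted p under 0.05, 3 were higher and 4 lower. With the methods' t-test, 1 was higher and 3 lower before adjustment, and 0 passed in either direction after it. The genes that fell were Abca1, the cholesterol exporter (3814 ± 723 in NFFSE and 6613 ± 1256 in NFFS), Mbtps1, the protease that makes the first cut in SREBPs (1751 ± 56.0 in NFFSE and 3005 ± 578 in NFFS), and Ggps1, which makes geranylgeranyl diphosphate (880 ± 9.59 in NFFSE and 1198 ± 168 in NFFS). They were named after their values were seen. Abca1 did not pass when all probe sets were averaged (0.12). Msmo1, the sterol oxidase that opens demethylation, had 7864, 9262 and 10768 in NFFSE arrays, against 3693, 6231 and 8286 in NFFS arrays. It was also named after its values were seen, and its difference of 0.68 had an adjusted p of 0.072, or 0.0045 with the repeat as a block. With that block, Npc2, which carries cholesterol in lysosomes, also rose (adjusted p of 0.035) and the ubiquitin ligase gene Rnf139 also fell (adjusted p of 0.031), so that 2 genes rose and 4 fell. These genes were likewise named after their values were seen.

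Of 29 other genes of fatty acid supply, synthesis and use, 15 rose and 3 fell, with a median of 0.44. Of all genes, 11.1% rose and 15.4% fell. Of genes at or above the mean signal of Acss2, 19.5% rose and 24.1% fell, though some of the 29 were dimmer than that. With the methods' t-test, 8 of the 29 rose and 3 fell after adjustment. Fads3, a relative of Fads1 and Fads2, moved against them, with 1665 ± 238 in NFFSE and 383 ± 31.2 in NFFS, a 4.33-fold rise (2.11 ± 0.14, adjusted p of 4.6e-06). Mid1ip1, which promotes assembly of acetyl-CoA carboxylase, averaged 2134 ± 226 in NFFSE and 798 ± 37.5 in NFFS (2.66-fold, adjusted p of 1.8e-05). Elovl4, the elongase for the ultra-long chains of barrier ceramides, averaged 910.4 ± 54.4 in NFFSE and 375 ± 42.1 in NFFS (2.44-fold, adjusted p of 8.4e-05). The fatty acid activating enzyme Acsl5 rose 1.58-fold with an adjusted p of 0.0018.

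Fabp4, a fatty acid carrier abundant in fat cells, had signals of 112, 129 and 151 in NFFSE arrays, while all 3 NFFS arrays lay at or under the background of 22.7. It was at least 5.71-fold higher in NFFSE, with an adjusted p of 0.00039. The 4 measured adipocyte markers, which include Fabp4, summed to 190 to 236 in NFFSE and 32.7 to 47.0 in NFFS, of which Fabp4 and Retn rose. Retn, which encodes resistin, was at least 1.94-fold higher in NFFSE (adjusted p of 0.032), with all 3 NFFS arrays at background, and Adipoq and Lep did not pass the test. The part of such cells in these results was not tested.

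The fatty acid genes that fell were Gpam, the first enzyme of glycerolipid synthesis (480.4 ± 79.4 in NFFSE and 875 ± 77.9 in NFFS, adjusted p of 0.0017), Elovl3 and Idh1, of which the last pair were named after their values were seen. Elovl3, an elongase of sebaceous glands, averaged 54.5 ± 14.4 in NFFSE and 157 ± 32.5 in NFFS. Idh1, which makes NADPH in the cytosol, averaged 6685 ± 129 in NFFSE and 8677 ± 234 in NFFS, and it did not pass with median-centered arrays (0.29). Lpin1, a phosphatidate phosphatase, had an adjusted p of 0.081, or 0.0013 with the repeat as a block, by which it fell too, and was named for that.

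Sebocyte markers moved in both directions. Of 6 measured sebocyte genes, 3 rose (Scd3, Cidea and Plin2) and Elovl3 fell, against 11.1% of all genes that rose and 15.4% that fell. Scd3 and Elovl3 were also counted among the other fatty acid genes. The summed signal of the 6 genes was 2226 to 2827 in NFFSE and 1688 to 2108 in NFFS. Mc5r, a receptor that marks mature sebocytes, averaged 41.0 in NFFSE and 45.3 in NFFS, and Pparg had signals at background on 2 of 3 NFFSE arrays and 3 of 3 NFFS arrays. The part of sebocytes in the lipid gene results was not tested. Of 6 measured genes of cycling cells, 0 passed the test by limma, also at an unadjusted p under 0.05 and with the methods' t-test, and their median difference was -0.070.

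Several genes were read by more than 1 probe set, which gives a second view from the same RNA. The 33 genes had 79 probe sets, and 39 of the 46 that had not been chosen were above background on all arrays. Of these, 30 had the same sign as the chosen probe set, and for the 18 genes that rose or fell it was 18 of 21. Not all of them passed the test. A further probe set of Mvk (mean signal of 533) differed by 0.16, with a limma adjusted p of 0.54. For Cyp51 (2710) it was 0.18 with an adjusted p of 0.56, and for Idi1 (4836) 0.31 with an adjusted p of 0.19. Others did pass. Scd1 differed by 1.56 (adjusted p of 4.3e-05) and the further Insig2 probe sets by -1.03 and -1.15. For Hmgcs1, of 4 probe sets that had not been chosen, those that passed the test differed by 0.60 (adjusted p of 0.040) and 0.79 (adjusted p of 0.048). Another differed by 0.63 (adjusted p of 0.089), and one with a mean signal of 46.0 by -0.63 (adjusted p of 0.28), so that the call for this gene depended on the probe set.

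Lss was split between its probe sets. The chosen one differed by 0.20 without passing the test, and another, with a mean signal of 707, had 485, 617 and 622 in NFFSE arrays, against 821, 705 and 990.4 in NFFS arrays. That probe set fell by 0.54 on the log2 scale, with an adjusted p of 0.033 over all probe sets. For Stard4, a probe set with a mean signal of 881 differed by -0.15, and when all probe sets were averaged Stard4 did not pass the test (0.25).

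The controls of RNA integrity gave no common direction. The 3′ minus 5′ signal of the Gapdh control was -0.37 ± 0.011 in NFFSE and -0.62 ± 0.017 in NFFS on the log2 scale (p = 0.1 in a two-sided exact permutation test, the lowest that 3 against 3 arrays allow), and that of Actb was 0.27 ± 0.019 in NFFSE and 0.33 ± 0.059 in NFFS (p = 0.3 by the same exact test). The exact test did not use the pairing of the arrays by repeat. The part of RNA integrity in the lipid gene results was not tested.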

How the data were processed

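Total RNA (100 ng) of each culture was hybridised to an Affymetrix Mouse Genome array. The authors deposited linear intensity values for 45101 probe sets, for which the submitters' processing notes name MAS5 (its version is not stated there). The authors' scaling to 1 trimmed mean, without the lowest and highest 2%, was checked on the values. Background correction and probe set summary were the authors' and could not be changed. Of the probe sets, 64 controls, 932 with several symbols and 9160 with no listed gene were left out. Where probe sets shared a symbol, the one with the highest mean was used, which gave 18193 genes, and a repeat of the tests over all single-symbol probe sets served to compare probe sets.

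A linear model of the log2 intensities was fitted in limma 3.58.1, under R 4.3.3 (lmFit and eBayes with an intensity trend), as NFFSE minus NFFS, 3 against 3 arrays, with p-values adjusted by Benjamini-Hochberg across the 18193 genes at 0.05. Precision is limited by the number of arrays. Means and SDs are linear, and folds are antilogs of log2 differences. Signals up to the highest of 18 TrpnX control values (22.7) were taken as background, and a gene at background on all arrays of a medium has a bound in place of a fold. The fit was also run on simulated data with independent noise and few changed genes. That run does not show how the fit behaves on paired arrays with many changed genes.

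By the submitters' design text, 1 isolate of cells was split between the media in each repeat, and deviations of arrays with the same number from their group means correlated at 0.263, 0.144 and 0.147, against -0.141 to -0.0095 for other pairs. The numbers therefore pair the arrays. Genes are said to have risen or fallen by the fit without this pairing, unless the block is named. The fit with the repeat as a block was the paired alternative. Other alternatives were median-centered and quantile-normalized arrays, the mean of all probe sets, 16 added to the signals, a floor at background, leaving out dim genes, no intensity trend, the methods' t-test and leaving out each array.

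Genes and lists were chosen with earlier results of these data known, so no p-value was computed over a list. By rule, values on each array are given for the regulators, for Hmgcs1, Sqle, Acaca, Fasn and Scd1, and for genes past the threshold with a log2 difference of at least 1 in size. Other pathway genes are named when among the 6 smallest p-values. Array values of Mvd, Dhcr7, Elovl1, Elovl5 and Fads2 were added to show how far the media overlap. Probe sets of closely related genes, such as Scd1 and Scd2, can share signal.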

Additional observations from a re-analysis of the deposited data

How the results depend on the processing

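Of the 18 genes that rose or fell, 7 (Pmvk, Nsdhl, Ebp, Elovl1, Elovl5, Fads1 and Insig2) kept their call under all 15 alternatives, and of the 15 others, 6 passed the test under at least 1. The count of sterol genes that rose, 11, was 5 with probe sets averaged, 5 with the methods' t-test (adjusted over all genes) and 5 without an intensity trend. It ran from 6 to 13 when 1 array was left out and was 13 with the repeat as a block and 15 with median-centered arrays. Averaging gave probe sets at background the same weight as the others, such as a Fdps probe set with a mean signal of 2.4. No alternative gave a sterol gene that fell. The fatty acid genes that rose, 2, were 1 with the methods' t-test and 1 without an intensity trend, 2 to 2 with 1 array left out and 3 with the repeat as a block. The count that fell stayed at 2 to 3. The regulators that rose, 1, were 2 with median-centered arrays, 2 with dim genes left out and 2 with the repeat as a block, and 0 with probe sets averaged, 0 with the methods' t-test and 0 without an intensity trend, and 1 to 2 with 1 array left out (2 without NFFSE replicate 1). The 15 other pathway genes that rose were 20 with median-centered arrays, 8 with the methods' t-test and 8 without an intensity trend, and 10 to 18 with 1 array left out. The 6 that fell were 4 with median-centered arrays, 3 with the methods' t-test and 3 without an intensity trend, and 4 to 7 with 1 array left out.

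The sterol median of 0.50 was 0.70 with median-centered arrays and 0.41 to 0.59 with 1 array left out. The fatty acid median of 0.12 was 0.32 with median-centered arrays, -0.073 with quantile normalization, 0.064 with the mean of all probe sets and 0.073 to 0.20 with 1 array left out. That of the regulators was 0.029 to 0.26 with 1 array left out. Single genes changed sign as follows. The difference of Sc5d was -0.0054 with the mean of all probe sets, that of Acaca -0.032 with the same setting, those of Acly and Scd2 -0.073 and -0.11 with quantile normalization, and that of Srebf1 0.039 with median-centered arrays. Dhcr7 ranged from -0.14 to 0.0998 with 1 array left out, negative without NFFSE replicate 1 or NFFS replicate 2. Centering on the medians gave 2920 genes that rose and 1816 that fell among all genes, against 2021 and 2805. The block moved Hmgcs1, Mvd, Fasn and Insig1 past the threshold and changed no other call among the 33 genes. Centering adds the same amount to every gene's log2 difference, since the array medians were lower in NFFSE. The cause of the other shifts was not tested.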
